A study of Homo sapiens with 6 samples.

Results

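Collagen chains, laminin chains and integrin subunits were examined in H69AR cells, a multidrug-resistant small-cell lung cancer (SCLC) line derived from NCI-H69 cells. Members were all genes of the expression table whose symbol has the form of a collagen alpha chain (COL1A1), a laminin chain (LAMA5) or an integrin alpha or beta subunit (ITGA5, ITGB1), without antisense genes and pseudogenes. This gave 82 of 27852 listed genes, made up of 44 collagens, 12 laminins and 26 integrins. The cells had been transfected with an siRNA against TREX1 (siTREX1) or with a nonspecific control siRNA (siCtrl), and RNA was taken on day 3. Each group had 3 RNA-seq libraries, and the labels give no other difference between the groups. The study asked what depletion of TREX1, an exonuclease that degrades DNA in the cytosol, does to gene expression in these resistant cells. The cells are 1 line grown in culture, so matrix and receptors made by stromal cells of a tumor are not part of these samples.

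Collagens assemble as trimers of alpha chains, of which some form fibrils, some the sheet-like network of basement membranes, and others different structures. Laminins are cross-shaped trimers of an alpha, a beta and a gamma chain that organize basement membranes. Integrins are receptors made of an alpha and a beta subunit that bind these proteins outside the cell and connect them to actin and to focal adhesion kinase signaling within it, and SCLC cells are known to adhere to laminin and fibronectin through integrins of the beta-1 class.

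TREX1 itself had 28.4, 16.0 and 18.2 CPM in the libraries labelled siTREX1 replicates 1, 2 and 3, against 22.7, 31.5 and 24.7 CPM in siCtrl replicates 1, 2 and 3, where CPM is the estimated count per 1000000 counts of the library, scaled between libraries with TMM factors. The library labelled siTREX1 replicate 1 therefore lay within the siCtrl range. These values rest on 1 listed transcript of TREX1. The paper also compared TREX1 by qPCR and immunoblotting in H69AR cells given siCtrl or siTREX1. The log2 fold change over all libraries was -0.33 (standard error, SE, 0.24, edgeR adjusted p = 0.349). Without the library labelled siTREX1 replicate 1 it was -0.62 (edgeR adjusted p = 0.0499). That library was singled out by its TREX1 level, so the second p is not a test of depletion. Directions below compare libraries by these labels, siTREX1 over siCtrl, and the library labelled siTREX1 replicate 1 is included unless stated. Library totals ran from 16329106 to 20902412 estimated counts in siTREX1 libraries and from 16417292 to 22482687 in siCtrl libraries. The labels name no separate cultures for the replicates, and the p-values rest on the spread between libraries alone, and that spread may be technical. SCLC is usually neuroendocrine, whereas H69AR is described by the study as nonneuroendocrine, and markers of both states were read. Vimentin (VIM), the intermediate filament of mesenchymal cells, had 2523 ± 13.2 CPM in siTREX1 and 2501 ± 1.83 CPM in siCtrl libraries (SD, n = 3 each), and 9 of 10 mesenchymal markers passed the filter on low counts, against 6 of 12 neuroendocrine markers. Of the mesenchymal markers 1 was higher (CAV1) and 2 lower (TWIST1 and ZEB1), and of the neuroendocrine markers 1 was higher (SCG2) and 1 lower (DLL3). In each list this was 33.3% of the tested markers, the same share as over all tested genes. The levels within the neuroendocrine list were mixed, with 674 ± 40.7 CPM in siTREX1 and 657 ± 13.2 CPM in siCtrl libraries for UCHL1, 13.1 ± 0.646 CPM in siTREX1 and 15.3 ± 1.62 CPM in siCtrl libraries for INSM1 (SD, n = 3 each), and at most 3 counts in any library for NEUROD1. Of 10 leukocyte markers 3 passed the filter, and of 10 fibroblast and endothelial markers 2.

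The estimated counts do not depend on transcript length, so levels can be compared between genes, but each gene is represented by 1 listed transcript. Of the 82 members, 43 did not pass the filter, with at most 19 counts in any library, and 14 of these were listed at 0 in all 6 libraries. Of the 39 members tested, 34 were listed by a protein-coding transcript and 25 by the transcript with the longest coding sequence of the gene. Of all members, 9 averaged at least 100 CPM.

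**Figure D1:**
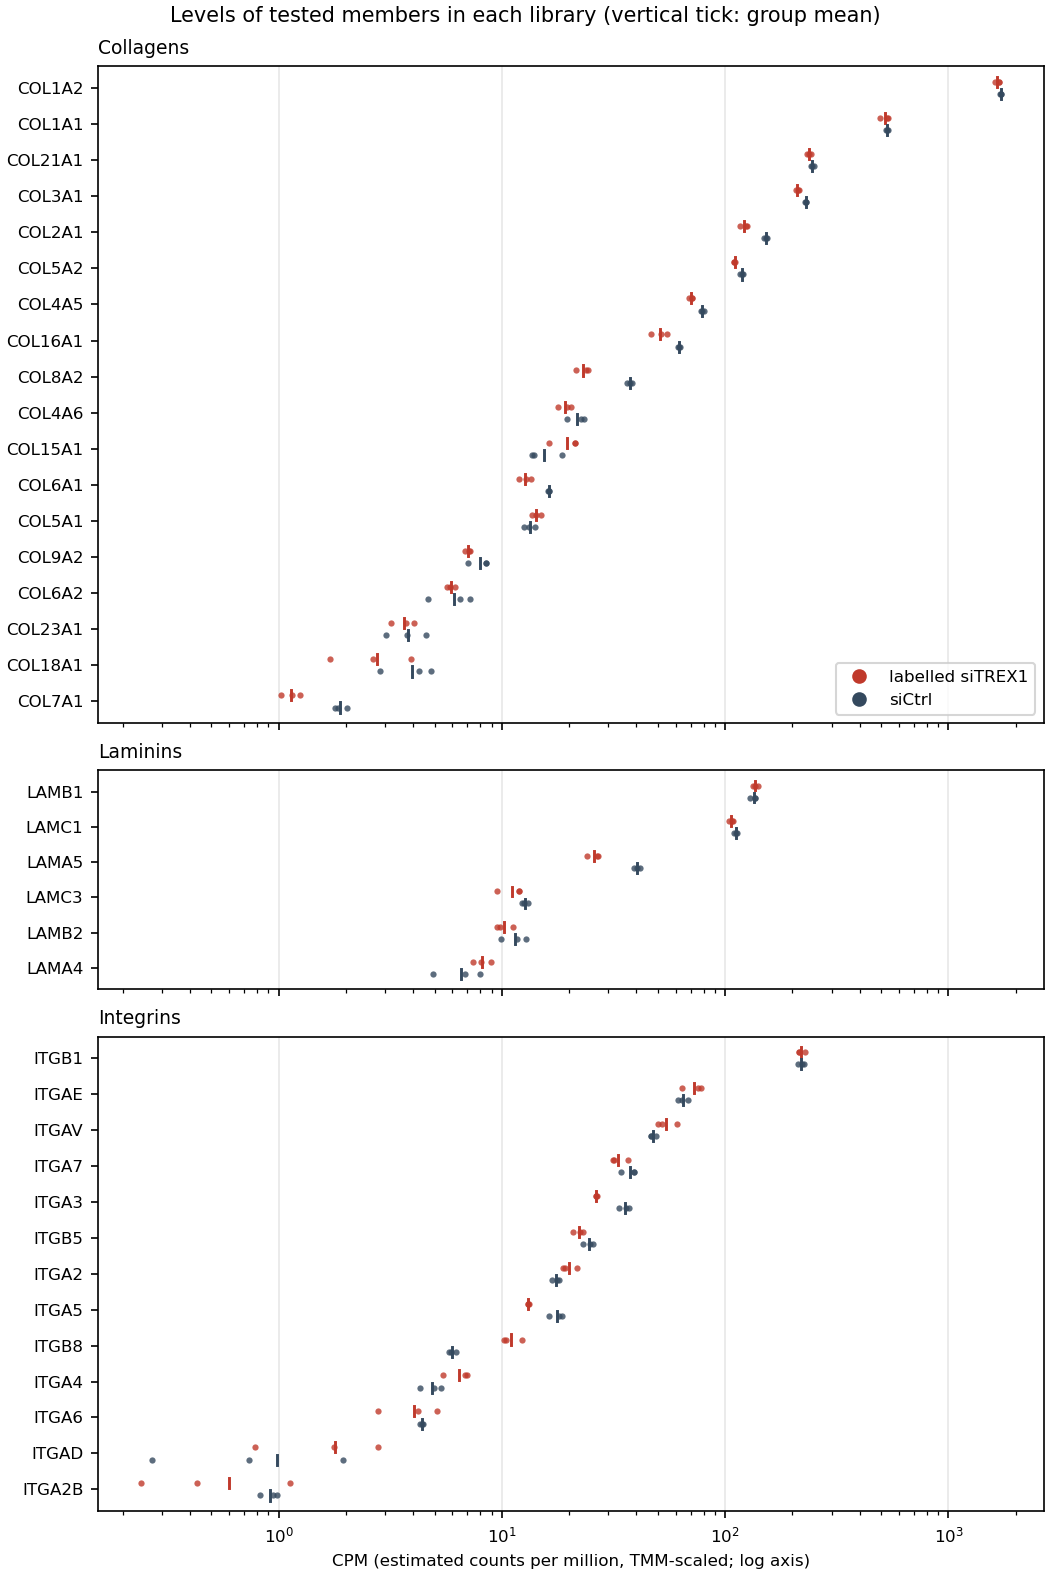
Levels of tested members. The horizontal log axis gives CPM, each point is 1 library, vertical ticks are group means, and red points above dark points are libraries labelled siTREX1 above siCtrl. COL9A3 and ITGB4, which were at 0 in some libraries, are left out. COL8A2 and LAMA5 lie to the left of siCtrl and ITGB8 to its right without overlap, whereas COL1A1 and ITGB1 overlap.

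Across the members, changes ran mostly towards lower levels in the libraries labelled siTREX1, and they were small. At an adjusted p under 0.05 in edgeR's quasi-likelihood test, fitted over all genes, 10 of the 39 tested members were lower and 1 was higher. This was 25.6% lower and 2.56% higher among the members, against 15.5% lower and 17.8% higher among all 13221 tested genes, and 28.2% against 33.3% in either direction. Log2 fold changes had a median of -0.11 for the 39 members and of -0.02 for all tested genes. The CPM ranges of the groups did not overlap for 18 of the 39 members, against 50.4% of all tested genes. The only call towards higher levels was ITGB8, a count that became 2 without siTREX1 replicate 3 (with ITGAE), and 2 in DESeq2 (with ITGAV). Among the called members only ITGB8, COL8A2 and LAMA5 had an absolute log2 fold change of at least 0.5. Without siTREX1 replicate 1, the library in which TREX1 was not lower, 9 members were lower and 1 higher, and the log2 fold changes were 0.93 for ITGB8, -0.72 for COL8A2, -0.66 for LAMA5, -0.42 for ITGA3 and -0.41 for ITGA5, all called in edgeR. In these bulk samples, fewer cells that express a gene and less RNA per cell cannot be told apart.

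**Figure D2:**
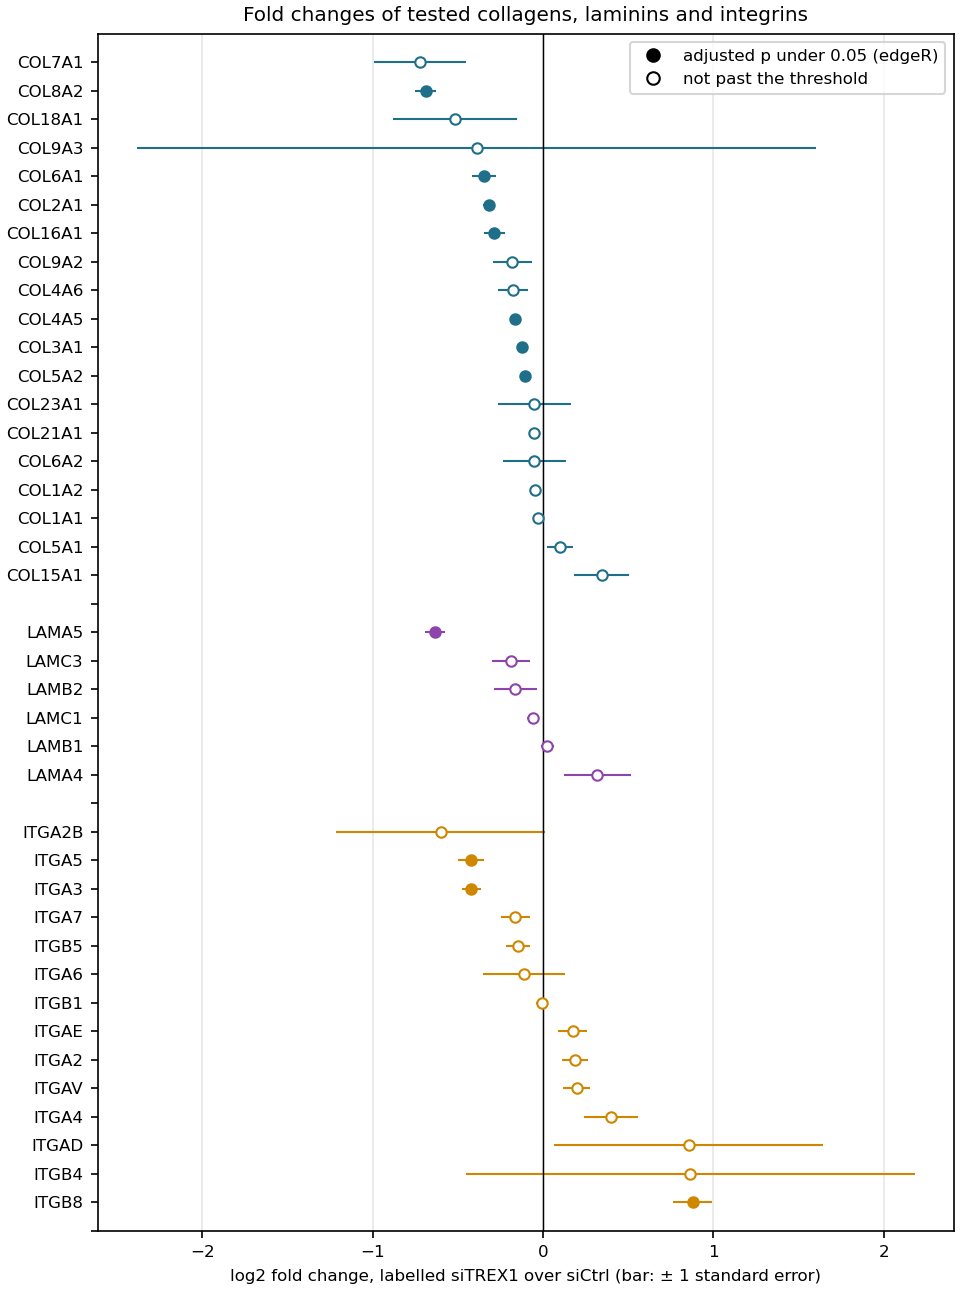
Fold changes of the 39 tested members. The horizontal axis gives the log2 fold change of libraries labelled siTREX1 over siCtrl with 1 standard error, colors separate collagens, laminins and integrins from top to bottom, and filled points passed an adjusted p under 0.05 in edgeR. The 7 filled collagens and the filled laminin lie left of 0, and ITGB8 is the only filled point right of 0.

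The promoter windows of the members with the largest called changes, and of ITGA5, are shown because they allow the start regions of a rising and of falling members to be set side by side. RefSeq (GRCh38.p14) held windows from 250 bases before to 50 bases after the start for 58 of the 82 members, among them 6 of the 11 called. Capitals mark matches on either strand to an AP-1 site (TGACTCA), a cyclic AMP response element (TGACGTCA), a GC box (GGGCGG, the core bound by SP1) or a TATA box (TATAAA), and GC boxes may overlap. ITGB8 lies at chr7:20330650-20330949 on the plus strand, and COL8A2 at chr1:36125173-36125472, LAMA5 at chr20:62367263-62367562 and ITGA5 at chr12:54419217-54419516 on the minus strand, and each sequence is written 5′ to 3′ on the strand of its gene.
ITGB8: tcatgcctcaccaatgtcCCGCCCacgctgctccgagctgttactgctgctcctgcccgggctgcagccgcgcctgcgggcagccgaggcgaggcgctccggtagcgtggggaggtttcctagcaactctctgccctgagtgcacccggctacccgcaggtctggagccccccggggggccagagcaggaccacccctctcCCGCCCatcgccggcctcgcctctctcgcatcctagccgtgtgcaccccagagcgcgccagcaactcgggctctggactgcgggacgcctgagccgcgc
COL8A2: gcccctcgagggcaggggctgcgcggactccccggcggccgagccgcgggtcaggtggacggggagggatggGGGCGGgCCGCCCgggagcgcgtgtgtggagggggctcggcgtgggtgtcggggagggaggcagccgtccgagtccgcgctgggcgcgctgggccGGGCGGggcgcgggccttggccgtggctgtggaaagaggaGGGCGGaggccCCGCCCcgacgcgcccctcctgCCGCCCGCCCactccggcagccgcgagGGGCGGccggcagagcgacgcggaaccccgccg
LAMA5: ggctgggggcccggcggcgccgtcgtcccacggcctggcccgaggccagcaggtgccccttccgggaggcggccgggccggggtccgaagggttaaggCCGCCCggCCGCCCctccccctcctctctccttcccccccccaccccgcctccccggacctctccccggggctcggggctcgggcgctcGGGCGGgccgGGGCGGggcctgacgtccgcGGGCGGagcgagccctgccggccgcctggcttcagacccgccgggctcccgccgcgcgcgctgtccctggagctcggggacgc
ITGA5: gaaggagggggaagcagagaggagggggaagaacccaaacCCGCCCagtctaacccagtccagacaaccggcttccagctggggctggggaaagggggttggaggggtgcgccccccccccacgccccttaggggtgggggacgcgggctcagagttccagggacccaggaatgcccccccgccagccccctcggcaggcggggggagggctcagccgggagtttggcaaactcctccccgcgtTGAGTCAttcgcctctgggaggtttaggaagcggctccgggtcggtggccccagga

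GC boxes were found in 45.0% of all 35116 promoter windows and in 21 of the 27 tested members with a window. Percentages here are per window, whereas a member was counted when any of its windows matched. Some members have more than 1 window, which raises their counts, so the 2 kinds of share cannot be compared directly. The COL8A2 window held 8 GC boxes, the LAMA5 window 5, the ITGB8 window 2 and the ITGA5 window 1. The AP-1 letters occurred in 4.95% of all windows and in 1 of the 27 tested members, ITGA5, close to its start. The cyclic AMP response element was found in 1.85% of all windows and in 0 of the 27, and the TATA letters in 11.5% of all windows and in 5 of the 27, none of which is printed above. By base composition the windows of COL8A2 (82.0% GC) and LAMA5 (82.7% GC) were richer in GC than those of ITGB8 (71.7%) and ITGA5 (69.3%), and the median over all windows was 58.7%. These matches describe letters only.

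Among collagens, 7 of 19 tested chains were lower and 0 were higher in edgeR (8 and 0 at p under 0.05 before adjustment, 7 and 0 in DESeq2), and their log2 fold changes had a median of -0.16. The lower chains were 36.8% of those tested, against 15.5% of all tested genes. The chains of type I collagen were the most abundant members of the whole set. COL1A2, a chain of type I collagen, had 1680, 1681 and 1614 CPM in siTREX1 and 1715, 1713 and 1704 CPM in siCtrl libraries. COL1A1, the other chain of type I collagen, had 535, 532 and 494 CPM in siTREX1 and 530.1, 536 and 525 CPM in siCtrl libraries. COL1A2 alone made up 52.4% to 53.7% of all collagen CPM in the 6 libraries, and neither chain passed the test, although the COL1A2 ranges did not overlap, with log2 fold changes of -0.04 (SE 0.022, edgeR adjusted p = 0.166) for COL1A2 and -0.03 (SE 0.035, edgeR adjusted p = 0.596) for COL1A1.

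COL3A1, the chain of the type III fibrils that accompany type I, had 211, 213 and 207 CPM in siTREX1 and 230.5, 227 and 229.5 CPM in siCtrl libraries. The groups did not overlap and the chain was lower by a small amount, with a log2 fold change of -0.12 (SE 0.023, edgeR adjusted p = 0.0092). COL5A2, which with COL5A1 forms type V collagen and helps to set the diameter of fibrils, had 109.6, 111 and 110.0 CPM in siTREX1 and 119, 116 and 120.0 CPM in siCtrl libraries, a log2 fold change of -0.10 (SE 0.027, edgeR adjusted p = 0.028). This call was lost without siTREX1 replicate 1 (0.0861), 2 (0.0647) or 3 (0.0604), without siCtrl replicate 1 (0.0784) or 3 (0.0914), with library sizes alone (0.0632) and in the blocked fit (0.0776), all as adjusted p. COL5A1 itself had 14.9, 14.1 and 13.6 CPM in siTREX1 and 14.1, 13.3 and 12.6 CPM in siCtrl libraries, and its groups overlapped. COL2A1, the main chain of cartilage fibrils, was outside the rule for named genes and is given after its values were seen. It had 125, 124 and 116 CPM in siTREX1 and 149, 153 and 153 CPM in siCtrl libraries, and fell by 0.32 on the log2 scale (SE 0.036, edgeR adjusted p = 0.00158) with no overlap.

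COL21A1 and COL16A1 are collagens that attach to the surface of fibrils. COL21A1 had 242, 232 and 236 CPM in siTREX1 and 250.2, 245 and 241 CPM in siCtrl libraries, and its groups overlapped slightly (log2 fold change -0.05, edgeR adjusted p = 0.200). COL16A1, also named after its values were seen, had 54.7, 51.7 and 46.4 CPM in siTREX1 and 61.9, 62.9 and 61.6 CPM in siCtrl libraries. Its log2 fold change was -0.29 (SE 0.063, edgeR adjusted p = 0.017), and the call was lost without siCtrl replicate 1 (adjusted p = 0.0518), 2 (0.0586) or 3 (0.0517) and after removal of a GC trend (0.0701).

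COL8A2 showed the largest called decrease among the collagens. It encodes a chain of type VIII collagen, a short-chain collagen that forms hexagonal networks and is best known from the basement membrane of the corneal endothelium. Its level was 24.2, 23.8 and 21.4 CPM in siTREX1 and 36.5, 38.3 and 37.4 CPM in siCtrl libraries. Every siTREX1 library lay below every siCtrl library, with means of 23.2 ± 1.504 CPM in siTREX1 and 37.4 ± 0.894 CPM in siCtrl libraries (SD, n = 3 each), a log2 fold change of -0.69 (SE 0.062, edgeR adjusted p = 0.000737). Its partner COL8A1, the other type VIII chain, was listed at 0 in all 6 libraries.

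Of the type IV collagens of basement membranes, COL4A5 and COL4A6 passed the filter. COL4A1, a chain of the type IV collagen found in nearly all basement membranes, was listed at 0 in all 6 libraries, and its partner COL4A2 rounded to 0 counts in each. The table lists 1 transcript per gene and also holds the widely used adhesion gene PARVA at 0 counts after rounding in all 6 libraries, so a listed 0 is not read as absence of the mRNA. COL4A5, which together with COL4A6 forms a type IV network of more restricted tissues, had 71.0, 68.7 and 71.4 CPM in siTREX1 and 78.0, 80.2 and 78.4 CPM in siCtrl libraries, a log2 fold change of -0.16 (SE 0.033, edgeR adjusted p = 0.0114) with no overlap. COL4A6 had 20.3, 19.6 and 17.9 CPM in siTREX1 and 19.6, 22.5 and 23.3 CPM in siCtrl libraries. Its groups overlapped and it did not pass the test, with a similar log2 fold change of -0.18 (SE 0.089, edgeR adjusted p = 0.179). COL4A5 and COL4A6 lie head to head on chromosome X, with 346 bases between the genes in GENCODE 29 on GRCh38.

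Type VI collagen forms beaded microfibrils from several different chains. COL6A1 had 12.8, 13.4 and 11.9 CPM in siTREX1 and 16.2, 16.1 and 16.3 CPM in siCtrl libraries, and fell by 0.35 on the log2 scale (SE 0.073, edgeR adjusted p = 0.0134). Its siTREX1 and siCtrl values did not overlap, but the call was lost after removal of a GC trend (adjusted p = 0.0667) and in the blocked fit (0.0502). COL6A2 had 5.70, 5.86 and 6.16 CPM in siTREX1 and 6.51, 7.19 and 4.66 CPM in siCtrl libraries, with overlap, and COL6A3 was listed at 0 in all 6 libraries. COL7A1, the chain of the anchoring fibrils that tie epithelial basement membranes to the underlying matrix, had the most negative fitted value of the collagens (-0.72, SE 0.27) without passing the test (edgeR adjusted p = 0.087). It was outside the rule and is named after its values were seen, and its level was only 1.24, 1.02 and 1.15 CPM in siTREX1 and 2.02, 1.78 and 1.85 CPM in siCtrl libraries, without overlap. The remaining tested collagens, COL9A2, COL9A3, COL15A1, COL18A1 and COL23A1, did not pass the test, with log2 fold changes from -0.52 for COL18A1 to 0.35 for COL15A1, which was listed by a retained-intron transcript of 771 nt. The 25 collagens that did not pass the filter averaged at most 0.421 CPM.

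Among laminins, 1 of 6 tested chains was lower and 0 were higher in edgeR (the same counts without adjustment for multiple tests and in DESeq2). That was 16.7% lower, close to the 15.5% of all tested genes. LAMB1, the most common beta chain, had 133, 136 and 141 CPM in siTREX1 and 137, 137 and 129 CPM in siCtrl libraries. LAMC1, the gamma chain of most laminins, had 107.7, 103.5 and 108.5 CPM in siTREX1 and 111.8, 112.9 and 109.0 CPM in siCtrl libraries, narrowly without overlap. Both were the abundant laminin chains of these cells, and neither passed the test, with log2 fold changes of 0.03 (SE 0.038) for LAMB1 and -0.06 (SE 0.032) for LAMC1.

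LAMA5, an alpha chain of adult epithelial and vascular basement membranes whose end carries the sites bound by integrins, was the laminin that changed. It had 26.8, 26.7 and 24.1 CPM in siTREX1 and 39.1, 41.4 and 40.1 CPM in siCtrl libraries. The siTREX1 libraries were all below the siCtrl libraries, at a log2 fold change of -0.63 (SE 0.059, edgeR adjusted p = 0.000827). LAMC3, a less common gamma chain, had 11.9, 11.9 and 9.48 CPM in siTREX1 and 12.6, 12.3 and 13.1 CPM in siCtrl libraries, and did not pass the test in spite of no overlap (log2 fold change -0.19, edgeR adjusted p = 0.242). Of the other alpha chains, LAMA1 and LAMA3 were listed at 0 in all 6 libraries, LAMA2 did not pass the filter, and LAMA4, whose listed transcript is only 645 nt long, did not pass the test (log2 fold change 0.32, edgeR adjusted p = 0.27). LAMB2 did not pass it either (-0.16, edgeR adjusted p = 0.37), and the 6 laminins that did not pass the filter averaged at most 0.270 CPM. LAMA5 was the most abundant alpha chain in the table in both groups.

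Among integrins, 1 of 14 tested subunits was higher and 2 were lower, and the median log2 fold change was 0.08. That was 7.14% higher and 14.3% lower, against 17.8% and 15.5% of all tested genes. ITGB1, the beta subunit shared by most matrix-binding integrins, had 215, 214 and 227 CPM in siTREX1 and 226, 221 and 212 CPM in siCtrl libraries. It made up 83.8% to 87.6% of all integrin beta CPM in the 6 libraries, its groups overlapped, and its log2 fold change of -0.0068 (SE 0.037, edgeR adjusted p = 0.906) was positive with library sizes alone (0.012) and was called lower after removal of a GC trend (-0.084, edgeR adjusted p = 0.0476). The leukocyte subunit ITGB2 and the epithelial subunit ITGB6 were listed at 0 in all 6 libraries.

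ITGB8 was the integrin that rose. It encodes a beta subunit that pairs with ITGAV and binds latent transforming growth factor beta. Its level was 10.2, 10.4 and 12.3 CPM in siTREX1 and 6.20, 5.78 and 5.93 CPM in siCtrl libraries. All siTREX1 libraries lay above all siCtrl libraries, with means of 11.0 ± 1.16 CPM in siTREX1 and 5.97 ± 0.212 CPM in siCtrl libraries (SD, n = 3 each), which was 1.84-fold higher in the fit (log2 fold change 0.88, SE 0.11, edgeR adjusted p = 0.00239). ITGAV, its only known alpha partner, had 52.3, 50.04 and 60.6 CPM in siTREX1 and 48.9, 46.7 and 46.4 CPM in siCtrl libraries. These ranges did not overlap, but the log2 fold change of 0.20 (SE 0.078) did not pass the test (edgeR adjusted p = 0.103) and passed it in DESeq2 (adjusted p = 0.0465). ITGB5, another beta partner of ITGAV that forms a vitronectin receptor, had 22.3, 20.9 and 23.2 CPM in siTREX1 and 25.6, 23.0 and 24.9 CPM in siCtrl libraries, which overlapped slightly (log2 fold change -0.15, edgeR adjusted p = 0.150).

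The alpha subunits that fell were ITGA3 and ITGA5, both of which pair with ITGB1. ITGA3, a laminin-binding subunit, had 26.5, 26.4 and 26.6 CPM in siTREX1 and 33.5, 35.9 and 37.1 CPM in siCtrl libraries, a log2 fold change of -0.42 (SE 0.054, edgeR adjusted p = 0.00239). ITGA5, which makes the classic fibronectin receptor, had 13.0, 13.1 and 13.3 CPM in siTREX1 and 18.5, 18.0 and 16.3 CPM in siCtrl libraries, a log2 fold change of -0.42 (SE 0.074, edgeR adjusted p = 0.00698). For both subunits the siTREX1 libraries were nearly identical and lay below all siCtrl libraries. The other laminin-binding subunits did not pass the test. ITGA7, best known from muscle, had 36.6, 31.6 and 31.6 CPM in siTREX1 and 34.1, 38.9 and 38.9 CPM in siCtrl libraries, with overlap. ITGA6 had 5.12, 2.80 and 4.23 CPM in siTREX1 and 4.40, 4.30 and 4.42 CPM in siCtrl libraries, also with overlap.

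ITGAE, known as the alpha subunit of lymphocytes that bind E-cadherin, stood next to ITGB1 in level, with 78.2, 75.3 and 64.2 CPM in siTREX1 and 61.3, 68.4 and 63.8 CPM in siCtrl libraries. Its listed transcript is a processed transcript of 672 nt without a coding sequence, so this value is not a level of the mRNA for the subunit, and its groups overlapped (log2 fold change 0.17, edgeR adjusted p = 0.167, and 0.25 with adjusted p = 0.0301 without siTREX1 replicate 3). ITGB4, the partner of ITGA6 in hemidesmosomes, was likewise listed by a retained-intron transcript of 411 nt, with 2.78, 1.13 and 8.09 CPM in siTREX1 and 4.63, 1.91 and 0 CPM in siCtrl libraries. Its values were scattered in both groups. In the order of integrin levels, ITGB1 was followed by ITGAE, ITGAV, ITGA7, ITGA3, ITGB5, ITGA2, ITGA5 and ITGB8, and over the 6 libraries the ranges of the neighbors ITGA7 and ITGA3, ITGB5 and ITGA2, and ITGA2 and ITGA5 overlapped. The 12 integrins that did not pass the filter averaged at most 0.333 CPM, among them the collagen-binding subunits ITGA1, ITGA10 and ITGA11, so that ITGA2 was the only collagen-binding alpha subunit tested (log2 fold change 0.19, edgeR adjusted p = 0.115). ITGA4 (0.40, edgeR adjusted p = 0.107), ITGAD (0.86) and ITGA2B (-0.60) were tested as well and did not pass. ITGAD was also listed by a retained-intron transcript, of 511 nt, and its groups overlapped (SE 0.79).

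Ratios between chains that form 1 protein were compared within each library, where library size cancels. Of 10 ratios, 6 did not overlap between the groups, beside 50.4% of all tested genes for single gene levels. With 3 libraries against 3 the two-sided exact permutation test cannot give a p under 0.1, which is 0.167 after adjustment over the 10 ratios. The ratio of COL1A1 to COL1A2 was -1.65, -1.66 and -1.71 on the log2 scale in siTREX1 and -1.69, -1.68 and -1.70 in siCtrl libraries. COL1A2 was therefore listed at 3.14 to 3.27 times COL1A1 in siTREX1 and 3.20 to 3.24 times in siCtrl libraries, and the ratio differed by 0.017 between groups (exact permutation p = 0.4). The type I collagen trimer is normally built with more COL1A1 than COL1A2 chains, and the table holds only 1 transcript of each gene.

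The ratio of LAMA5 to LAMC1 was -2.01, -1.96 and -2.17 on the log2 scale in siTREX1 and -1.51, -1.45 and -1.44 in siCtrl libraries, a difference of -0.57 with no overlap (exact permutation p = 0.1, the smallest possible). The ratio of LAMB1 to LAMC1 was 0.30, 0.39 and 0.37 in siTREX1 and 0.29, 0.27 and 0.24 in siCtrl libraries, a difference of 0.09 (exact permutation p = 0.1). The difference in the ratio was larger for the alpha chain than for the beta chain, which was not tested as such. The ratios to ITGB1 moved with the alpha subunits. ITGA5 over ITGB1 averaged -4.05 ± 0.031 in siTREX1 and -3.64 ± 0.052 in siCtrl libraries (SD, n = 3 each, exact permutation p = 0.1), and ITGA3 over ITGB1 averaged -3.04 ± 0.043 in siTREX1 and -2.63 ± 0.12 in siCtrl libraries (SD, n = 3 each, exact permutation p = 0.1). ITGAV over ITGB5 was higher, with 1.23, 1.26 and 1.39 in siTREX1 and 0.93, 1.02 and 0.89 in siCtrl libraries (exact permutation p = 0.1). COL5A1 over COL5A2 averaged -2.95 ± 0.069 in siTREX1 and -3.15 ± 0.088 in siCtrl libraries (SD, n = 3 each, exact permutation p = 0.1). COL4A5 over COL4A6 averaged 1.87 ± 0.11 in siTREX1 and 1.86 ± 0.12 in siCtrl libraries (SD, n = 3 each, exact permutation p = 0.9), and the ratios of COL6A1 to COL6A2 (p = 0.3) and ITGA6 to ITGB4 (p = 0.5, exact permutation) also overlapped.

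**Figure D3:**
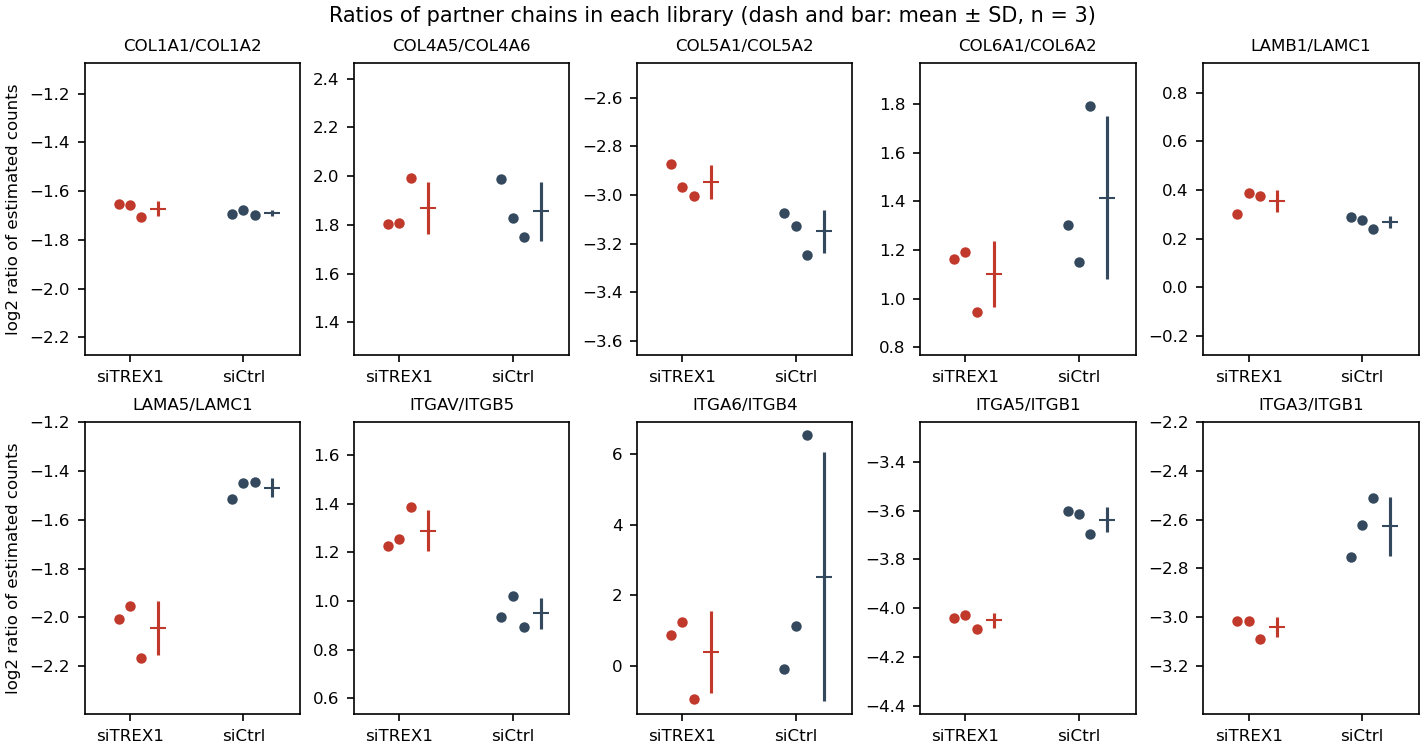
Ratios of partner chains. Each panel gives the log2 ratio of estimated counts of 2 chains, points are libraries, dashes and bars are mean ± SD (n = 3), and libraries labelled siTREX1 stand left of siCtrl. The vertical scales differ between panels. LAMA5/LAMC1, ITGA5/ITGB1 and ITGA3/ITGB1 are lower in siTREX1 libraries without overlap, and COL1A1/COL1A2 overlaps.

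Summed over all 44 collagens, the level was 3140, 3129 and 3003 CPM in siTREX1 and 3264, 3269 and 3241 CPM in siCtrl libraries. The siTREX1 mean differed from the siCtrl mean by -5.14% with no overlap, and COL1A2 accounted for 31.4%, COL2A1 for 18.0% and COL3A1 for 11.3% of the difference. Laminins summed to 298, 298 and 300.2 CPM in siTREX1 and 317, 325 and 308 CPM in siCtrl libraries, a difference of -5.66% without overlap, with 79.9% of the difference from LAMA5. Integrins summed to 494, 475 and 501 CPM in siTREX1 and 488, 489 and 476 CPM in siCtrl libraries, which overlapped. These sums are descriptions without a test.

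The genes that work with these chains were counted in the same fit. Their lists were chosen with earlier results of these data known, so the shares set beside all tested genes are descriptions only. Of 28 tested genes of collagen maturation, 5 were lower (17.9%, against 15.5% of all tested genes) and 1 was higher (3.57%, against 17.8%). SERPINH1, the collagen chaperone HSP47, had 561, 552 and 555 CPM in siTREX1 and 622, 645 and 620.2 CPM in siCtrl libraries (log2 fold change -0.18, edgeR adjusted p = 0.00241), and lost its call after removal of a GC trend (adjusted p = 0.0606). The lysyl hydroxylase PLOD1 fell by 0.20 on the log2 scale (edgeR adjusted p = 0.00407). COLGALT2, which adds galactose to collagen, fell by 0.14 (edgeR adjusted p = 0.0171), a call that was lost without siTREX1 replicate 1 (0.0621) or 2 (0.0594), without siCtrl replicate 1 (0.0525), 2 (0.0572) or 3 (0.0593) and in the blocked fit (0.0525). LOX, the lysyl oxidase that starts the crosslinking of collagen and elastin, ran the other way, with 174, 173 and 180.4 CPM in siTREX1 and 150.1, 150.4 and 156 CPM in siCtrl libraries (log2 fold change 0.21, edgeR adjusted p = 0.00412). MIA3 and P3H3 were outside the rule of lowest p and are named after their values were seen. They fell by more, with log2 fold changes of -0.83 (SE 0.19, edgeR adjusted p = 0.0183) for MIA3 and -0.62 (SE 0.14, edgeR adjusted p = 0.0182) for P3H3. Whether the calls of MIA3 and P3H3 held under each alternative was not followed gene by gene. The count of lower genes in this list was 3 without siTREX1 replicate 1 or without any 1 of the siCtrl replicates.

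Of 17 tested other matrix proteins, 4 were higher (23.5%, against 17.8% of all tested genes) and 5 lower (29.4%, against 15.5%), and the rises of CCN1, THBS1 and CCN2 were larger than any called among the members. CCN1, a matricellular integrin ligand, had 253, 248 and 241 CPM in siTREX1 and 66.0, 69.03 and 68.6 CPM in siCtrl libraries (log2 fold change 1.86, edgeR adjusted p = 1.38e-05). Thrombospondin 1 (THBS1), another integrin ligand, had 95.7, 92.6 and 96.9 CPM in siTREX1 and 28.5, 28.95 and 29.97 CPM in siCtrl libraries (log2 fold change 1.71, edgeR adjusted p = 1.84e-05). CCN2, of the same family as CCN1, had 5.89, 5.70 and 4.59 CPM in siTREX1 and 0.718, 0.615 and 0.874 CPM in siCtrl libraries (log2 fold change 2.86, edgeR adjusted p = 0.000584). All siTREX1 libraries exceeded all siCtrl libraries for these 3 genes. The basement membrane proteoglycan agrin (AGRN), which binds laminin, had 71.8, 71.2 and 67.8 CPM in siTREX1 and 85.1, 85.3 and 84.4 CPM in siCtrl libraries (log2 fold change -0.27, edgeR adjusted p = 0.00229), and lost its call after removal of a GC trend (adjusted p = 0.564). The count of lower genes in this list was 3 without siCtrl replicate 2 or 3.

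Of 28 tested genes of the integrin adhesion complex, which links the beta subunit to actin, 9 were higher and 10 lower, which was 67.9% called, against 33.3% of all tested genes. The count of higher genes was 5 without siCtrl replicate 2. Zyxin (ZYX), a protein of mature adhesions and stress fibers, had 199, 190.3 and 189 CPM in siTREX1 and 124, 131 and 132 CPM in siCtrl libraries (log2 fold change 0.58, edgeR adjusted p = 0.000248). ITGB1BP1, an inhibitor of ITGB1 activation, had 19.8, 19.1 and 20.2 CPM in siTREX1 and 31.0, 29.3 and 28.1 CPM in siCtrl libraries (log2 fold change -0.58, edgeR adjusted p = 0.0011). The adaptor CRK rose by 0.49 (edgeR adjusted p = 0.00115) and the actin crosslinker ACTN1 by 0.23 on the log2 scale (edgeR adjusted p = 0.00228). BCAR1, outside the rule of lowest p and named after its values were seen, fell by 0.93 (edgeR adjusted p = 0.00456). The median over the tested genes of this list was -0.06, beside -0.02 over all genes. Of 12 tested other matrix receptors, 3 were lower and 1 higher, which was 33.3% called and the same share as over all tested genes. The proteoglycan receptor SDC1 fell by 0.41 (edgeR adjusted p = 0.000442), SDC3 by 0.45 (edgeR adjusted p = 0.000946) and the collagen-uptake receptor MRC2 by 0.43 on the log2 scale (edgeR adjusted p = 0.00148). CD47, a thrombospondin receptor that associates with integrins, was higher by 0.33 (edgeR adjusted p = 0.0418), a call that was lost without siTREX1 replicate 2 (0.109) or 3 (0.115), without siCtrl replicate 1 (0.0937) or 3 (0.103) and after removal of a GC trend (0.0854).

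Fold changes moved with the GC content of the transcripts. Over the 39 tested members, the correlation of the log2 fold change with GC content was -0.45 (Pearson) and -0.52 (Spearman), and over the 13151 tested genes with a known transcript it was -0.16 and -0.20. These correlations are across genes of the same 6 libraries, and genes are not independent replicates. Of the 10 members that were lower, 9 lay above the median GC content of all tested genes (49.8%), with a range from 47.9% to 66.4%, and ITGB8 had 37.8%. The tested members as a whole were rich in GC, with a median of 59.0% for all 39 and of 61.3% for the 10 that were lower. When a GC trend was removed from each library, the correlation over the members became -0.21 (Pearson). The log2 fold changes were then -0.56 for COL8A2, -0.41 for LAMA5, -0.30 for ITGA3, -0.34 for ITGA5 and 0.80 for ITGB8, and all 5 still passed the test. The value of COL2A1 was then -0.18, against -0.32 as fitted, and its call held. COL1A1 was then called higher (log2 fold change 0.10, edgeR adjusted p = 0.0122), and COL21A1 (-0.093, edgeR adjusted p = 0.0332) and ITGB1 (-0.084, edgeR adjusted p = 0.0476) were called lower. The part of base composition in these differences was otherwise not tested.

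**Figure D4:**
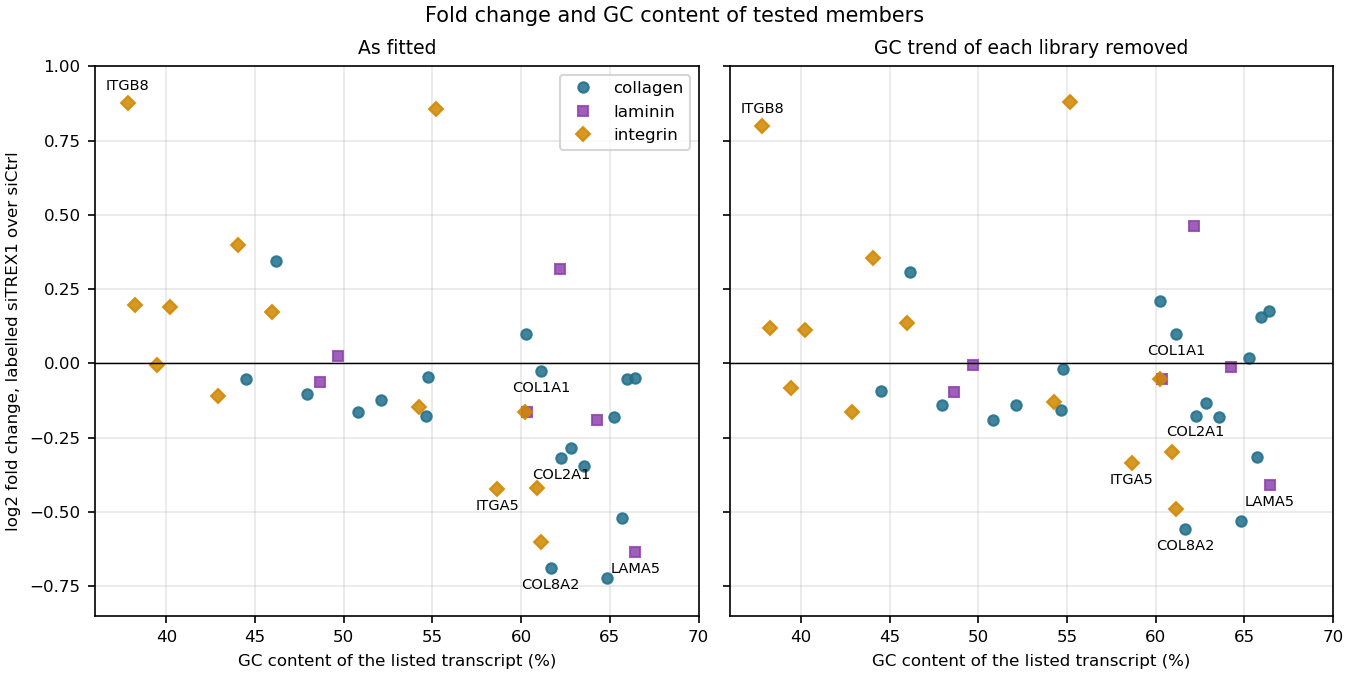
Fold change and GC content of 37 tested members, without COL9A3 and ITGB4. The horizontal axis gives the GC content of the listed transcript in percent, and the vertical axis the log2 fold change of libraries labelled siTREX1 over siCtrl, as fitted (left) and with the GC trend of each library taken out (right). ITGB8 stays above 0 and COL8A2, ITGA5 and LAMA5 stay below 0 in both panels, and COL1A1 crosses 0. ITGAD, which did not pass the test, lies close to ITGB8 on the left (0.86 against 0.88). Its groups overlapped, and its standard error was 0.79, against 0.11 for ITGB8. On the right ITGAD lies above ITGB8 (0.88 against 0.80).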

How the data were processed

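RNA-seq of H69AR cells was used, with 3 libraries labelled siTREX1 and 3 siCtrl libraries. The authors quantified transcripts with kallisto and summarized them with tximport 1.18.0, and the deposited values are estimated counts (scaledTPM), scaled to each library's depth, independent of transcript length and not numbers of reads, with 1 transcript listed per gene symbol. FastQC and hg19 are named in the submitters' processing notes. The version of kallisto and its annotation were not given in the sources used here. A line without a gene symbol, 0.0925% to 0.109% of each library's counts, was left out. Transcript types, lengths and GC contents came from GENCODE 29 on GRCh38, which held 99.3% of the listed transcripts.

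Rounded estimated counts went into edgeR 4.0.16 under R 4.3.3 (robust quasi-likelihood test, TMM factors, filterByExpr with a minimum count of 10), fitted on all genes with Benjamini-Hochberg adjustment over all 13221 tested, and an adjusted p under 0.05 was called changed. CPM are rounded counts per 1000000 of the TMM-scaled library size. Standard errors were derived from the fold change and the F statistic. Chain ratios, with 1 added to each count, were compared by two-sided exact permutation over libraries (scipy 1.17.1). The edgeR step was tested on simulated data.

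Members, lists and the rule for named genes were chosen with earlier results of these data known. Values in every library are given for members called with an absolute log2 fold change of at least 0.5, the 4 most abundant members of each family and partner chains that passed the filter, and for TREX1. Companion lists name up to 4 called genes with the lowest p, and CCN1 and CCN2. Alternatives were scaling by RLE factors or by library sizes only, DESeq2 1.42.0, limma-voom (limma 3.58.1), dropping the filter, requiring 10 counts or more in each of the 6 libraries, the replicate number as a block, removal of a lowess GC trend from each library, 0.5 added to counts in ratios, and leaving out each library.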

Additional observations from a re-analysis of the deposited data

How the results depend on the processing

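The calls of COL8A2, LAMA5, COL2A1, COL3A1, COL4A5, ITGA3 and ITGA5 as lower and of ITGB8 as higher held under all 14 alternatives, with log2 fold changes from -0.72 to -0.56 for COL8A2, from -0.66 to -0.41 for LAMA5 and from 0.79 to 0.93 for ITGB8. The 10 lower members were 8 to 9 when a library was left out, 8 with the replicate block and 9 with library sizes alone, and the 1 higher member was 1 to 2 when a library was left out and 2 in DESeq2 and after removal of the GC trend. Lower genes of collagen maturation numbered 3 to 5 when a library was left out and higher genes 2 with library sizes alone, 3 in DESeq2 and 4 without the GC trend. Lower genes among other matrix proteins numbered 3 to 5 and higher genes of the adhesion complex 5 to 9 when a library was left out. Other matrix receptors had 5 lower and 0 higher genes without the GC trend, and 0 to 1 higher when a library was left out. The cause of these shifts was not tested, but leaving out a library also leaves fewer samples in the test.

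Some values that did not pass the test changed sign, most of them near 0. Without the GC trend the log2 fold change was 0.10 for COL1A1, 0.18 for COL6A2 and -0.0062 for LAMB1, and with library sizes alone it was 0.012 for ITGB1. When a library was left out, log2 fold changes ran from -0.045 to 0.011 for COL1A1, from -0.21 to 0.080 for COL6A2, from -0.32 to 0.10 for ITGA6, from -0.032 to 0.014 for ITGB1, from -0.16 to 2.09 for ITGB4 and from -0.0027 to 0.046 for LAMB1. The log2 ratio of COL4A5 to COL4A6 differed by -0.050 to 0.079, and the integrin sum by -0.282 to 13.0 CPM.

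Same-numbered libraries did not deviate together (correlations of 0.0183, 0.0261 and 0.0245 over genes), so the replicate number is not taken to pair them. With the replicate block, 3419 genes were called, against 4398 without it, and 3 genes of collagen maturation and 3 other matrix proteins were lower. Each siTREX1 library correlated best with the siCtrl library of its own number, but all correlations lay between -0.0431 and 0.0261. For siTREX1 replicate 1 the value was 0.0183 with siCtrl replicate 1 and 0.0177 with siCtrl replicate 3. This order comes from the data and not from the design. Estimated counts carry no counting interval, and members under about 2 CPM, such as COL7A1, had standard errors of 0.27 and more.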
